A study of Mus musculus with 3 samples.

Results

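The TNF receptor superfamily holds cell surface receptors that T cells use to receive survival, costimulatory and death signals. Ligand trimers of the TNF family cluster these receptors. Receptors with an intracellular death domain, such as Fas and TNFR1, can recruit caspase-8 through adaptors. Receptors that recruit TRAF adaptors can switch on NF-κB, and these groups overlap. On CD4 T cells several of the TRAF-binding receptors, OX40, 4-1BB and GITR among them, are induced by activation, and GITR, OX40 and TNFR2 are also known from regulatory T cells.

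The report covers 9 genes of the family, taken as every probe set of the array whose only gene symbol was Tnfrsf1a, Tnfrsf1b, Tnfrsf25, Fas, Tnfrsf21, Tnfrsf4, Tnfrsf9, Tnfrsf18 or Cd27. This gave 13 probe sets out of 45037, and 9 genes out of 18193 named genes. The study asked which molecules go with IL-10 when cells are polarized towards Th17, and it compared 3 cytokine conditions with 1 Affymetrix array each. One culture received IL-6 at 10 ng/ml and TGFβ at 5 ng/ml (called IL-6 plus TGFβ), one received IL-6 and IL-23 at 10 ng/ml each (IL-6 plus IL-23), and one received TGFβ alone at 5 ng/ml (TGFβ). All 3 cultures were CD4+CD25- T cells taken from lymph nodes and spleens of BALB/c females, 6 to 8 weeks old, that lacked both Stat6 and T-bet, the factors of Th2 and Th1 cells. No culture came from mice with either gene intact. Activation lasted 2 days, by anti-CD3 bound to the plate (5 µg/ml) together with anti-CD28 (1 µg/ml), and none was left without cytokine or without activation.

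With 1 array per condition no ratio has a replicate check, and no p-value is given. Levels are quantile-normalized intensities in arbitrary units. Levels under a floor of 41.3, set from genes restricted to other tissues, were raised to it. The calls rest on size alone, at least 2-fold (1 on the log2 scale) with the brighter array above the floor. The SD of a log2 ratio between probe sets of the same gene was estimated from the median absolute deviation. It was 0.24 for IL-6 plus TGFβ over TGFβ and 0.30 for IL-6 plus TGFβ over IL-6 plus IL-23. For IL-6 plus IL-23 over TGFβ it was 0.31. The plain SDs were larger, at 0.27, 0.33 and 0.35 in the same order. This spread leaves out differences between cultures, mice and arrays. The deposited intensities were lowest on the IL-6 plus IL-23 array, with a median of 17.8 there, 28.1 on the IL-6 plus TGFβ array and 35.8 on the TGFβ array.

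The cells carried the genes of their labelled type. All 7 measured T cell markers were above the floor on every array, Cd4 among them at 716 with IL-6 plus TGFβ, 904 with IL-6 plus IL-23 and 1333 with TGFβ. Of 5 markers of NK cells and CD8 T cells 3 were above the floor on each array, and their summed level was 245 with IL-6 plus TGFβ, 387 with IL-6 plus IL-23 and 413 with TGFβ. Of 5 B cell markers 1 or 2 were above it per array, with sums of 178, 135 and 179 in the same order, and of 8 myeloid and dendritic cell markers 0 to 2 were, with sums of 215, 142 and 299. Cd8a and Cd8b1 were above the floor on every array, and Eomes with IL-6 plus IL-23 and with TGFβ. Klrd1 was above it with IL-6 plus TGFβ alone (53.0), and the NK cell marker Ncr1 on no array. Of the myeloid list Mpeg1 was above it with TGFβ alone, and Csf1r with IL-6 plus TGFβ and with TGFβ. The rest of that list, Lyz2 among them, lay below it on every array. All these sums take levels below the floor as measured. Stat6 and Tbx21, the gene of T-bet, were above the floor on every array. Which exons were deleted is not given in the labels.

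The 9 receptors fell into a few patterns. Fas, Tnfrsf9 and Tnfrsf18 were at least 2-fold lower with IL-6 plus TGFβ than on both other arrays. Tnfrsf4 and Cd27 were at least 2-fold lower with IL-6 plus TGFβ than with IL-6 plus IL-23, and lay between these with TGFβ. Tnfrsf1b had the opposite shape to these, being at least 2-fold lower with IL-6 plus IL-23 than on either array with TGFβ. Tnfrsf25 was above both other arrays with IL-6 plus TGFβ by less than 2-fold, Tnfrsf1a was nearly level, and Tnfrsf21 was at or near the floor.

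**Figure D1:**
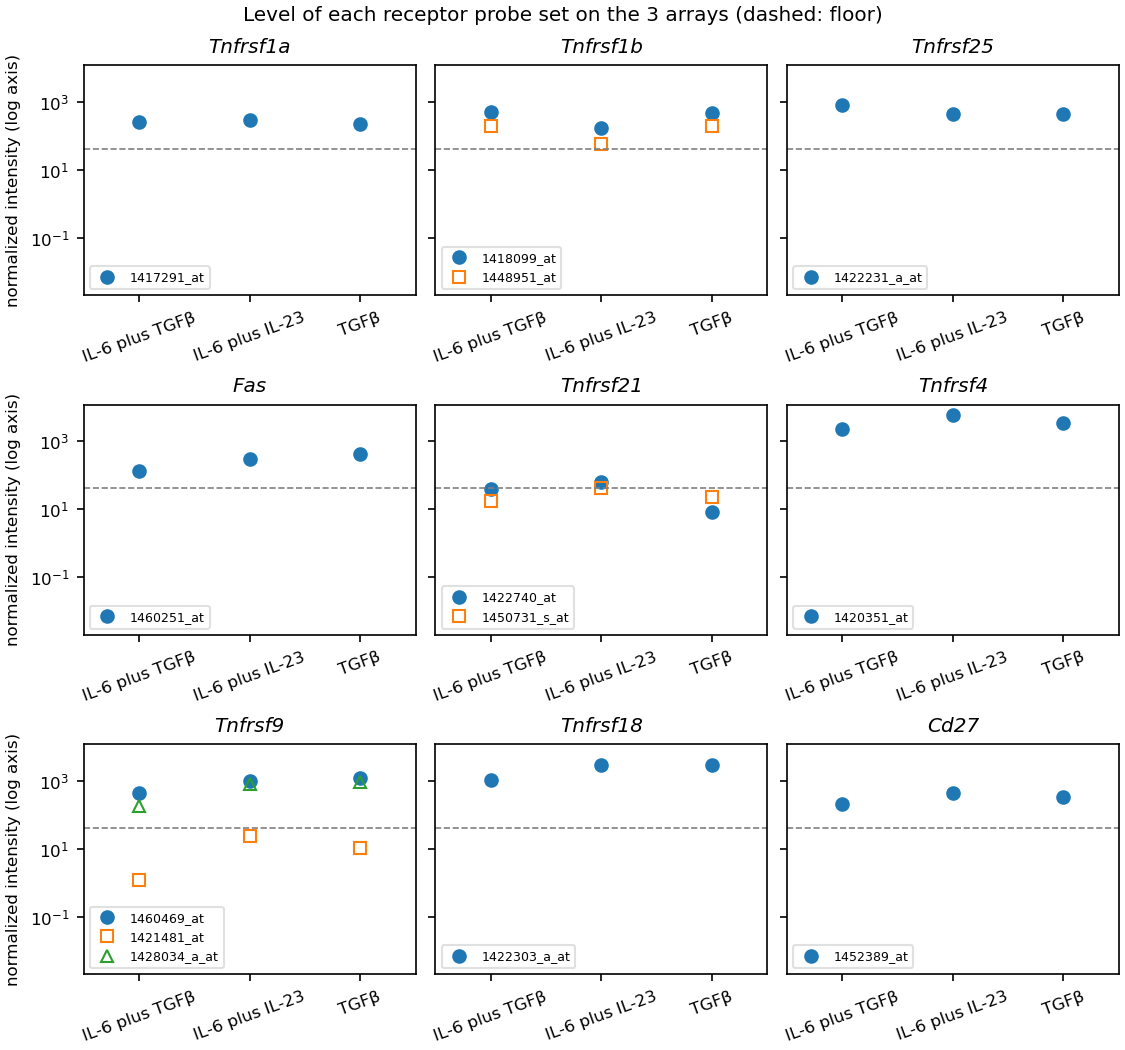
Normalized intensity (arbitrary units, log axis) of the 13 probe sets of the 9 receptor genes on the IL-6 plus TGFβ, IL-6 plus IL-23 and TGFβ arrays, 1 point per probe set and array, with the floor of 41.3 dashed. Filled circles are the probe set that stands for the gene and open symbols further ones. Fas, Tnfrsf9 and Tnfrsf18 are lowest on the IL-6 plus TGFβ array, Tnfrsf1b is lowest on the IL-6 plus IL-23 array, and Tnfrsf21 is above the floor on the IL-6 plus IL-23 array alone.

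Over all genes, 2.26% of 9893 were at least 2-fold lower with IL-6 plus TGFβ than with TGFβ, and 2.94% at least 2-fold higher. Of the 8 receptors that could be read in this pair, 3 were lower and 0 higher, with a median log2 ratio of -0.64 against 0.03 over all genes. With IL-6 plus TGFβ over IL-6 plus IL-23, 3.82% of 10101 genes were lower and 4.10% higher, while 5 of the 9 receptors were lower and 1 was higher, with a median of -1.03 against -0.04. With IL-6 plus IL-23 over TGFβ, 3.51% of 9972 genes were lower and 3.88% higher, while 1 of the 9 receptors was lower and 0 were higher, with a median of 0.03 against 0.07. The first pair and the next share the IL-6 plus TGFβ array, so a receptor that is low there counts in both. In either direction the shares of all genes were 5.21%, 7.92% and 7.39% for the 3 pairs in that order, where 3 of 8, 6 of 9 and 1 of 9 receptors were called. Of 10274 genes, 0.730% were lower with IL-6 plus TGFβ than on both other arrays, where 3 of the 9 receptors were, and 1.58% were lower with IL-6 plus IL-23 than on both other arrays, where 1 of the 9 was. The other patterns of this kind held 0 of the 9 receptors, namely IL-6 plus TGFβ highest (1.41% of genes), IL-6 plus IL-23 highest (2.02%), TGFβ highest (1.02%) and TGFβ lowest (0.905%). The receptors were chosen with earlier results of these arrays known, so these shares describe the arrays and nothing particular to the family is read from them.

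**Figure D2:**
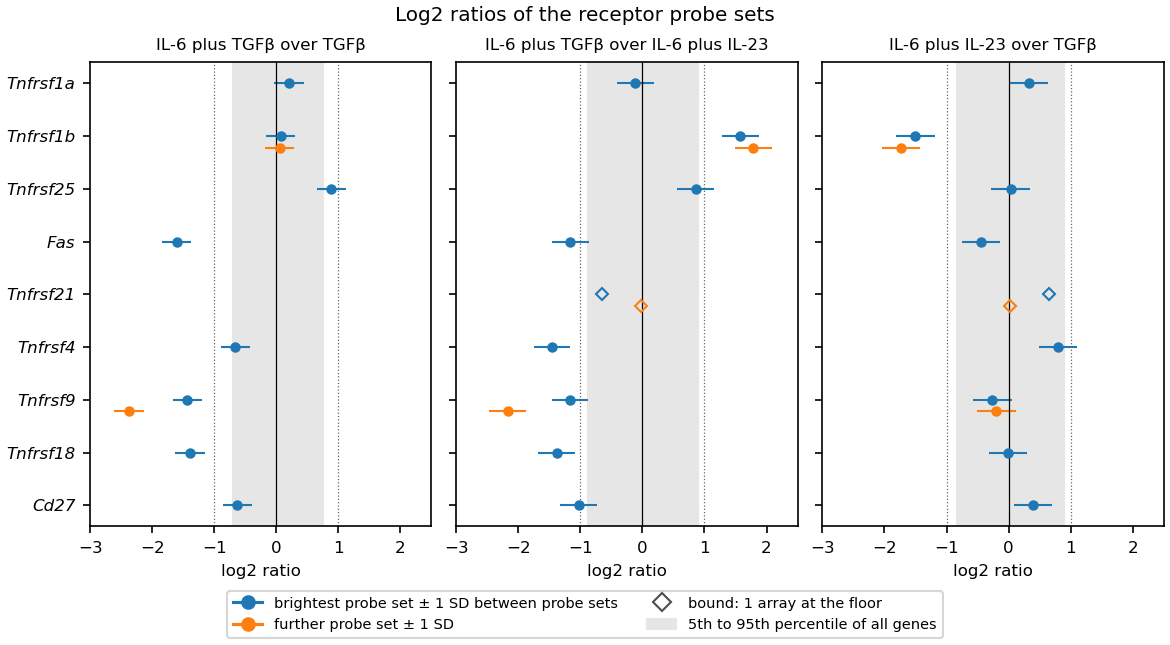
Log2 ratios of the receptor probe sets in the 3 comparisons, with bars of 1 SD between probe sets of the same gene (not a replicate error), the 2-fold limits dotted and the 5th to 95th percentile of all genes in grey. Blue is the brightest probe set of a gene, orange a further one, and open diamonds are bounds with 1 array at the floor; probe sets at the floor on both arrays are left out. The 2 readable probe sets of Tnfrsf1b lie together, whereas those of Tnfrsf9 lie apart in the IL-6 plus TGFβ comparisons.

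Tnfrsf9 encodes 4-1BB, a costimulatory receptor induced on activated T cells. Its brightest probe set read 439 with IL-6 plus TGFβ, 986 with IL-6 plus IL-23 and 1184 with TGFβ. The level was low on the IL-6 plus TGFβ array alone, and the other two arrays differed by -0.26 on the log2 scale, within 1 SD of the spread between probe sets. IL-6 plus TGFβ was 2.70-fold lower than TGFβ and 2.25-fold lower than IL-6 plus IL-23. Another Tnfrsf9 probe set read 184 with IL-6 plus TGFβ, 832 with IL-6 plus IL-23 and 954 with TGFβ. It had the same order of arrays, with IL-6 plus TGFβ 5.17-fold lower than TGFβ and 4.51-fold lower than IL-6 plus IL-23. The log2 ratios of these probe sets over TGFβ, -1.43 and -2.37, lay further apart than the spread of 0.24, so the size of the Tnfrsf9 difference depends on which probe set is read. The remaining Tnfrsf9 probe set was below the floor on every array and gives no ratio.

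Tnfrsf18 encodes GITR, which is induced by activation and is high on regulatory T cells. It read 1096 with IL-6 plus TGFβ, 2850 with IL-6 plus IL-23 and 2872 with TGFβ on its single probe set. The IL-6 plus IL-23 and TGFβ levels were nearly equal, at a log2 ratio of -0.01, and IL-6 plus TGFβ was 2.60-fold and 2.62-fold below them. Regulatory T cell genes did not share one order of arrays with it. Foxp3 read 232 with IL-6 plus TGFβ, lay below the floor with IL-6 plus IL-23 and read 498 with TGFβ. Ikzf2, the gene of Helios, was also lowest with IL-6 plus TGFβ, at 157, 235 and 309 on the same arrays. Nrp1 was lowest there too, at 52.4, 94.7 and 667. Unlike Tnfrsf18, Nrp1 was 7.04-fold lower with IL-6 plus IL-23 than with TGFβ. Of 13 readable genes of a regulatory T cell list, 7 were at least 2-fold higher with IL-6 plus TGFβ than with IL-6 plus IL-23. In that pair 0 were lower.

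Fas, the death receptor for Fas ligand that limits activated T cells, was measured by a single probe set. It read 137 with IL-6 plus TGFβ, 307 with IL-6 plus IL-23 and 418 with TGFβ. The IL-6 plus TGFβ level was the lowest, 3.05-fold below TGFβ and 2.24-fold below IL-6 plus IL-23. Its log2 ratio over TGFβ of -1.61 ranked 73 from the lowest of 9893 genes, against rank 98 for Tnfrsf9 and 102 for Tnfrsf18. With IL-6 plus IL-23 over TGFβ the Fas ratio was -0.45, more than 1 SD of the probe-set spread and less than 2-fold. The summed CD8 T cell and NK cell markers above were also lowest with IL-6 plus TGFβ, though Klrd1 was above the floor there alone. The part of such cells in these 3 receptor differences was not tested. In RNA from a whole culture, fewer cells that express a receptor and less RNA per cell cannot be told apart.

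Without any scaling of the arrays the IL-6 plus TGFβ over IL-6 plus IL-23 log2 ratios of these receptors were -0.62 for Fas, -0.72 for Tnfrsf9 and -0.96 for Tnfrsf18, short of 2-fold. For IL-6 plus IL-23 over TGFβ they were then -1.41 for Fas, -1.17 for Tnfrsf9 and -0.88 for Tnfrsf18, so that Fas and Tnfrsf9 were also called lower in that pair. The near-equal levels of Tnfrsf9 and of Tnfrsf18 on those arrays thus rest on the arrays being scaled. They were -0.17 and 0.13 apart with median scaling, and -0.40 and -0.11 with scaling to the hybridization controls. Over IL-6 plus IL-23 all 3 receptors stayed at least 2-fold lower with either scaling. With the hybridization controls these ratios were -1.02 for Fas, -1.11 for Tnfrsf9 and -1.36 for Tnfrsf18. With IL-6 plus TGFβ over TGFβ, all 3 stayed at least 2-fold lower in every setting tried. The floor settings could hardly move these ratios, so the changes of scaling are the main check.

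The promoter sequences of these receptors are shown because the 3 genes were low on the same array while Tnfrsf1b was not. The RefSeq table of GRCm38.p6 gave 11 start windows for the 9 genes, each from 250 bases before to 50 after an annotated start. Tnfrsf9 has 2 of them, the upstream start at chr4:150919905-150920204 and a downstream one at chr4:150927749-150928048, both on the plus strand. Tnfrsf18 lies at chr4:156026072-156026371 on the plus strand, Fas at chr19:34290409-34290708 on the plus strand and Tnfrsf1b at chr4:145246821-145247120 on the minus strand. The sequences run 5′ to 3′ along the gene, and capitals mark matches to GGGNNTTCC or the looser GGG, 4 free bases and TCC (letters of NF-κB type), TGANTCA (AP-1 type) or TTCNNNGAA (STAT type), searched on both strands.
Tnfrsf9, upstream start: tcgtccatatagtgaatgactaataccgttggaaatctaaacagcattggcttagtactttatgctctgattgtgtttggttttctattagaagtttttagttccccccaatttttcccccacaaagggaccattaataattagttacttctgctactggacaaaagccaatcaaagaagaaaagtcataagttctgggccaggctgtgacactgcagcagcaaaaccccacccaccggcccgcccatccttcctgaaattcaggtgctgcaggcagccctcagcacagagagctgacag
Tnfrsf9, downstream start: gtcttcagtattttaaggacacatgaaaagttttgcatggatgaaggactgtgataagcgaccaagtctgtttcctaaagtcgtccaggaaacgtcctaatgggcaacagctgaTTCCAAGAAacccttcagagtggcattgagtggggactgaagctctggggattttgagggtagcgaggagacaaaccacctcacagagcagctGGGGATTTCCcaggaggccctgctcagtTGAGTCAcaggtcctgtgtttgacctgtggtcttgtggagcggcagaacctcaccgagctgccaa
Tnfrsf18: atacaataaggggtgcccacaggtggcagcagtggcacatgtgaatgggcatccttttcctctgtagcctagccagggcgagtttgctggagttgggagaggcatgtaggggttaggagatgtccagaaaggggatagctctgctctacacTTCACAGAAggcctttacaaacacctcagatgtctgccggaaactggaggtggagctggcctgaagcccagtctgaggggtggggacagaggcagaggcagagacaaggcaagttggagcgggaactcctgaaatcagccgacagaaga
Fas: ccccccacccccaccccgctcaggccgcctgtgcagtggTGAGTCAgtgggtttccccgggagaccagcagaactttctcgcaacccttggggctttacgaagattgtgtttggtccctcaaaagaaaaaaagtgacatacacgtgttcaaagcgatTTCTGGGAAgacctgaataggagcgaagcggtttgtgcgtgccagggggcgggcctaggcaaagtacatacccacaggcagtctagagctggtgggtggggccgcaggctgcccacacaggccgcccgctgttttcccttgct
Tnfrsf1b: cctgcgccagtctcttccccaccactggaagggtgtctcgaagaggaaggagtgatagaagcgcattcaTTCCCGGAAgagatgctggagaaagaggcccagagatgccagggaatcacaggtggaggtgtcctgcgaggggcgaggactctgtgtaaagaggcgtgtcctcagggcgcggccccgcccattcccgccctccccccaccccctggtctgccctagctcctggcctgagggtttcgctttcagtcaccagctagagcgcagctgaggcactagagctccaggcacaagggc

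The downstream Tnfrsf9 window holds GGGATTTCC at -42 from its start, inside GGGGATTTCC, which also matches the longer NF-κB pattern, so these overlapping matches are 1 stretch. It also holds TGAGTCA at -15 and TTCCAAGAA at -136, while the upstream Tnfrsf9 window has none of the 4 patterns. The Fas window holds TGAGTCA at -211 and TTCTGGGAA at -93. The Tnfrsf18 window holds TTCACAGAA at -99 and the Tnfrsf1b window TTCCCGGAA at -181. The STAT-type pattern occurred in 6 of the 11 windows, those of 6 genes, and in 8.30% of all 32851 windows of that length. The AP-1 pattern occurred in 2 of the 11 windows and 7.81% of all, the shorter NF-κB pattern in 1 of the 11 and 5.82% of all, and the longer in 4 of the 11 and 19.2% of all. The short pattern CAGAC, of Smad type and not capitalised here, occurred in 6 of the 11 and in 49.6% of all. As Tnfrsf1b and the 3 low receptors both held the STAT-type letters, the letters alone did not separate the patterns. A match is a description of the sequence and not a site shown to be bound.

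Tnfrsf4 encodes OX40, a costimulatory receptor that prolongs the survival of activated CD4 T cells. It read 2245 with IL-6 plus TGFβ, 6164 with IL-6 plus IL-23 and 3546 with TGFβ on its single probe set. IL-6 plus TGFβ was lowest and IL-6 plus IL-23 highest, with a 2.75-fold lower level with IL-6 plus TGFβ than with IL-6 plus IL-23. The step to TGFβ was below 2-fold from either side, at log2 ratios of -0.66 for IL-6 plus TGFβ over TGFβ and 0.80 for IL-6 plus IL-23 over TGFβ, both beyond 1 SD of the probe-set spread. With median scaling IL-6 plus IL-23 over TGFβ came to 1.05, and without scaling IL-6 plus TGFβ over TGFβ came to -1.10 and IL-6 plus IL-23 over TGFβ to 0.04.

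Tnfrsf4 and Tnfrsf18 are neighbours on chromosome 4, at 156013595 to 156016613 and 156026322 to 156028894 of GRCm38.p6, with 9708 bases between them. Their order of arrays was not the same. For IL-6 plus IL-23 over TGFβ the log2 ratio was 0.80 for Tnfrsf4 and -0.01 for Tnfrsf18, which differ by more than the spread of 0.31. Of the 9 genes, 5 lie on chromosome 4 within 10.8 Mb, namely Tnfrsf1b, Tnfrsf9, Tnfrsf25, Tnfrsf4 and Tnfrsf18, and they span all the patterns described except the near-level one of Tnfrsf1a and the near-floor one of Tnfrsf21.

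Cd27 encodes the receptor for CD70, a costimulatory receptor that naive T cells already carry. It read 213 with IL-6 plus TGFβ, 434 with IL-6 plus IL-23 and 330 with TGFβ. The order of arrays was that of Tnfrsf4, with smaller steps. IL-6 plus TGFβ was 2.04-fold lower than IL-6 plus IL-23, just past the 2-fold limit, and 1.55-fold lower than TGFβ. The log2 ratio over IL-6 plus IL-23 of -1.03 came to -0.91 with scaling to the hybridization controls and to -0.52 without scaling, so this call rests on the normalization. Without scaling the ratio of IL-6 plus TGFβ over TGFβ was -1.07, past 2-fold, and that of IL-6 plus IL-23 over TGFβ turned to -0.55.

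Tnfrsf1b encodes TNFR2, the TNF receptor without a death domain, which is found mainly on lymphoid and myeloid cells and is prominent on regulatory T cells. Its brighter probe set read 503 with IL-6 plus TGFβ, 169 with IL-6 plus IL-23 and 480 with TGFβ. The further probe set read 199 with IL-6 plus TGFβ, 57.5 with IL-6 plus IL-23 and 191 with TGFβ. Both were low on the IL-6 plus IL-23 array alone, and the arrays with TGFβ differed by 0.07 and 0.05 on the log2 scale. IL-6 plus TGFβ was 2.98-fold higher than IL-6 plus IL-23 by the brighter probe set and 3.45-fold higher by the other. IL-6 plus IL-23 was 2.84-fold and 3.33-fold lower than TGFβ. These calls held in all 7 other settings, where the log2 ratio for IL-6 plus TGFβ over IL-6 plus IL-23 ran between 1.45 and 2.11. The floor settings could hardly move them, as the brighter probe set lay above every floor used. Without scaling the arrays with TGFβ differed by -0.39.

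Genes of a regulatory T cell list were set beside Tnfrsf1b. Of its 13 readable genes 2 were higher and 3 lower with IL-6 plus TGFβ than with TGFβ, with a median of -0.12. In the comparison with IL-6 plus IL-23, 7 of the 13 were higher with IL-6 plus TGFβ than with IL-6 plus IL-23 and 0 were lower, with a median log2 ratio of 1.68. With IL-6 plus IL-23 over TGFβ, 2 were higher and 8 lower, with a median of -1.74. These 2 higher genes, Il10 (1.94) and Ctla4 (1.16), ran opposite to Tnfrsf1b, and Nrp1 (-0.85) and Ikzf2 (-0.58) were on the other side of 0 for IL-6 plus TGFβ over IL-6 plus IL-23. Foxp3 was at least 5.62-fold higher with IL-6 plus TGFβ than with IL-6 plus IL-23, where it lay at the floor. The ectoenzyme gene Nt5e read 456 with IL-6 plus TGFβ and 43.0 with IL-6 plus IL-23. Whether these genes and Tnfrsf1b come from the same cells was not tested.

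Tnfrsf1a encodes TNFR1, the broadly expressed TNF receptor with a death domain. It read 264 with IL-6 plus TGFβ, 286 with IL-6 plus IL-23 and 229 with TGFβ. The 3 levels lay close together, with log2 ratios of 0.20, -0.12 and 0.32 for IL-6 plus TGFβ over TGFβ, IL-6 plus TGFβ over IL-6 plus IL-23 and IL-6 plus IL-23 over TGFβ. Only the last was beyond 1 SD of the probe-set spread, and it was within the plain SD of 0.35. Without scaling all 3 changed sign, to -0.25, 0.40 and -0.65. The receptors for TNF therefore gave different readings, with Tnfrsf1b at a log2 ratio of 1.57 for IL-6 plus TGFβ over IL-6 plus IL-23 where Tnfrsf1a was at -0.12, a gap larger than the spread of 0.30.

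Tnfrsf25 encodes DR3, a death domain receptor whose ligand TL1A costimulates T cells. It read 795 with IL-6 plus TGFβ, 439 with IL-6 plus IL-23 and 430 with TGFβ. The arrays without the IL-6 and TGFβ pair were nearly equal, at a log2 ratio of 0.03. IL-6 plus TGFβ was 1.85-fold higher than TGFβ and 1.81-fold higher than IL-6 plus IL-23, which is beyond the probe-set spread and short of the 2-fold rule. It was the highest log2 ratio over TGFβ among the 8 readable receptors, at 0.89, and ranked 361 from the highest of 9893 genes. Without scaling the log2 ratio was 0.42 over TGFβ and 1.33 over IL-6 plus IL-23, and that of IL-6 plus IL-23 over TGFβ was -0.91 in place of near 0.

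Tnfrsf21 encodes DR6, a death domain receptor studied in mouse T helper cells and in neurons. Its brighter probe set read 64.6 with IL-6 plus IL-23 and lay below the floor of 41.3 on the other arrays. This makes IL-6 plus IL-23 at least 1.56-fold higher than either, a bound that does not reach 2-fold. The further probe set stood at 42.0 with IL-6 plus IL-23, barely above the floor, and below it elsewhere. A lower floor, at the 75th percentile of the tissue-restricted probe sets, was also tried. By its brighter probe set Tnfrsf21 then counted as higher with IL-6 plus TGFβ than with TGFβ and higher with IL-6 plus IL-23 than with TGFβ. The further probe set had the other order for IL-6 plus TGFβ and TGFβ, at 17.65 and 22.67, both below the floor of 41.3.

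The shapes of the receptors across the 3 arrays were set side by side as the Euclidean distance between their log2 levels, each centred on its own mean. This was done for the 8 receptors above the floor on every array, or 28 pairs. The closest pairs were Fas and Tnfrsf9 at 0.15, Tnfrsf9 and Tnfrsf18 at 0.19, Fas and Tnfrsf18 at 0.31, and Tnfrsf4 and Cd27 at 0.34. The farthest was Tnfrsf1b and Tnfrsf4, at 2.24. With 3 arrays a shape holds only 2 independent differences, so many genes lie near any receptor. Within a distance of 0.3, 27 of 8811 other genes were found for Tnfrsf9, 11 for Fas, 23 for Tnfrsf18, 50 for Tnfrsf1b, 68 for Tnfrsf4 and 313 for Cd27.

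The genes nearest to Tnfrsf9 were Alcam, an adhesion molecule (0.04), Tank, a TRAF-binding protein (0.12), and the transporter Abcb1b (0.13). Alcam was also among the 3 nearest to Fas (0.10), with Jade2 (0.04) and Zfpm1 (0.10). Nearest to Tnfrsf18 were Wipf1 (0.10), Tnnt1 (0.17) and Ppip5k2 (0.19). A further probe set of Wipf1 gave -0.84 over TGFβ and -0.73 over IL-6 plus IL-23, short of 2-fold. By the brightest these were -1.28 and -1.40. Nearest to Tnfrsf4 were B3gnt2 (0.04), Mir155hg, the host transcript of the microRNA miR-155 (0.05), and Gbe1 (0.07). Sfxn3 (0.03), Pik3r1, a regulatory subunit of PI3 kinase (0.06), and Hace1 (0.06) were nearest to Tnfrsf1b. Hace1 was near the floor with IL-6 plus IL-23, at 46.1. Pik3r1 read 1026 with IL-6 plus TGFβ, 346 with IL-6 plus IL-23 and 1028 with TGFβ, and its 3 further probe sets had log2 ratios between 1.61 and 2.15 for IL-6 plus TGFβ over IL-6 plus IL-23. Bend3, A130010J15Rik and Bbc3 were nearest to Cd27, all within 0.02. A further probe set of Tank gave -0.31 over TGFβ and 0.04 over IL-6 plus IL-23, against -1.43 and -1.03 by the brightest, so the nearness of Tank holds for 1 of its probe sets.

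The ligands of these receptors were listed as 10 genes, with Ltb included as the partner gene of Lta. Of these genes, 8 were on the array under 1 symbol and 8 were above the floor on at least 1 array. For IL-6 plus TGFβ over TGFβ, 0 were higher and 0 lower, with a median of -0.56, and under the other settings 0 to 4 were called in this pair. For IL-6 plus TGFβ over IL-6 plus IL-23, 1 was higher and 2 were lower of 7 readable, with a median of -0.23. Tnfsf4, the OX40 ligand, read 99.9 with IL-6 plus TGFβ, 368 with IL-6 plus IL-23 and 196 with TGFβ. Tnfsf9, the 4-1BB ligand, read 54.3, 151 and 93.2 on the same arrays. Both ligands were thus lowest with IL-6 plus TGFβ and highest with IL-6 plus IL-23. For IL-6 plus TGFβ over IL-6 plus IL-23 they stood at log2 ratios of -1.88 and -1.47, where the receptor genes Tnfrsf4 and Tnfrsf9 stood at -1.46 and -1.17. Tnfrsf4 had the order of arrays of the ligands, whereas Tnfrsf9 was highest with TGFβ. The Tnfsf9 level with IL-6 plus TGFβ was near the floor, and with the floor doubled 2 ligands in place of 3 were called in this pair.

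Ligands of the TNF receptors did not share one direction. Tnf read 583 with IL-6 plus TGFβ, 789 with IL-6 plus IL-23 and 648 with TGFβ. Lta, the gene of lymphotoxin α, which binds both TNF receptors, read 5684 with IL-6 plus TGFβ, 1487 with IL-6 plus IL-23 and 7534 with TGFβ. Lta was therefore low on the array where Tnfrsf1b was low, 3.82-fold higher with IL-6 plus TGFβ than with IL-6 plus IL-23 and 5.07-fold lower with IL-6 plus IL-23 than with TGFβ. Ltb, whose product pairs with lymphotoxin α, was 2.51-fold lower with IL-6 plus IL-23 than with TGFβ. Fasl was below the floor with IL-6 plus TGFβ and read 48.4 with IL-6 plus IL-23 and 67.6 with TGFβ, and Cd70 was above the floor with TGFβ alone, at 49.1.

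Among the adaptors that bind the receptor tails, of 14 readable TRAF-related genes, 0 were higher and 1 was lower with IL-6 plus TGFβ than with TGFβ, and 1 was higher and 2 were lower than with IL-6 plus IL-23. Traf1, an NF-κB target that binds OX40 and 4-1BB complexes, read 249 with IL-6 plus TGFβ, 553 with IL-6 plus IL-23 and 409 with TGFβ, in the order of Tnfrsf4. Traf6 was, like Tnfrsf1b, low on the IL-6 plus IL-23 array, reading 470 with IL-6 plus TGFβ, 177 with IL-6 plus IL-23 and 486 with TGFβ, and its 2 further readable probe sets gave log2 ratios of 1.84 and 1.40 for IL-6 plus TGFβ over IL-6 plus IL-23. With IL-6 plus IL-23 over TGFβ, Traf6 was the 1 lower gene of this list and 0 were higher.

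Of 10 readable genes of death domain adaptors and apoptosis, 0 were higher and 0 lower with IL-6 plus TGFβ than with TGFβ, with a median of 0.13. Over IL-6 plus IL-23, 1 was higher, Fcmr, and 0 were lower, and Fcmr was also the 1 gene of the list lower with IL-6 plus IL-23 than with TGFβ. Casp8, the initiator caspase recruited by Fas, read 1585 with IL-6 plus TGFβ, 1646 with IL-6 plus IL-23 and 1457 with TGFβ. Cflar, the gene of the caspase-8 inhibitor c-FLIP, read 420 with IL-6 plus TGFβ, 722 with IL-6 plus IL-23 and 685 with TGFβ. It was lowest with IL-6 plus TGFβ, at log2 ratios of -0.71 over TGFβ and -0.78 over IL-6 plus IL-23, short of 2-fold.

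Of 19 readable genes of NF-κB subunits, inhibitors and feedback targets, 2 were higher and 3 lower with IL-6 plus TGFβ than with TGFβ (median -0.13), and 1 was higher and 1 lower than with IL-6 plus IL-23 (median -0.27). Under the other settings the calls of this list against IL-6 plus IL-23 numbered 2 to 6. With IL-6 plus IL-23 over TGFβ, 0 were higher and 1 was lower, the kinase gene Ikbke (median 0.13). Rel, the gene of c-Rel, read 128 with IL-6 plus TGFβ, 489 with IL-6 plus IL-23 and 246 with TGFβ, the order seen for Tnfrsf4 and its ligand. Tnip2, which encodes a partner of the feedback protein A20, was higher with IL-6 plus TGFβ, at log2 ratios of 1.63 over TGFβ and 1.37 over IL-6 plus IL-23. Bcl3 stood at 1.41 over TGFβ, and Ikbke (-1.51), Nfkbie (-1.10) and Icam1 (-1.03) were the lower ones.

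**Figure D3:**
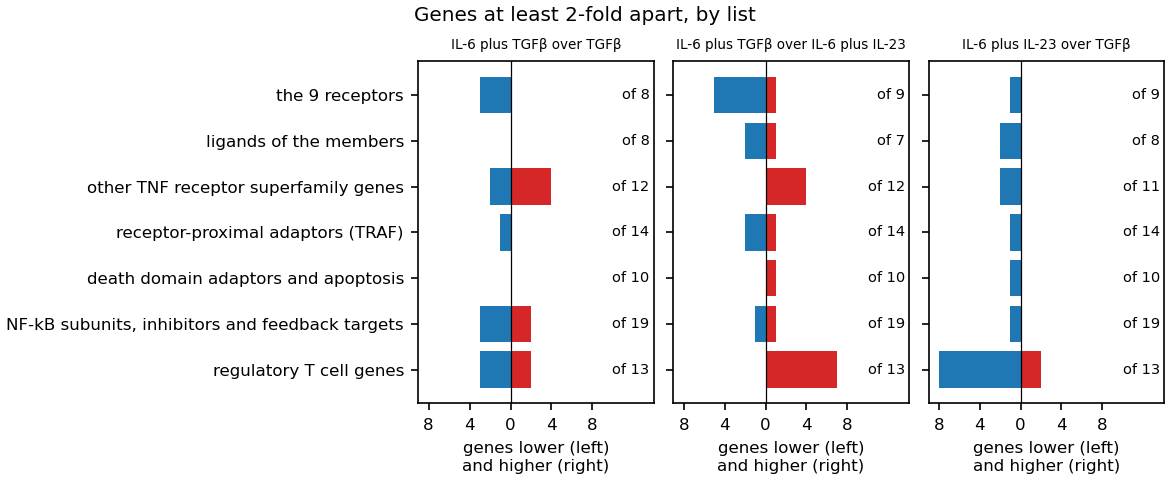
Number of genes at least 2-fold lower (blue, left) and higher (red, right) in each comparison, for the 9 receptors and the 6 gene lists, with the number of readable genes at the right of each panel. Of the receptors 3 of 8 are lower in IL-6 plus TGFβ over TGFβ and 5 of 9 in IL-6 plus TGFβ over IL-6 plus IL-23. Over all genes, not drawn, 2.26% and 3.82% were lower in these pairs. The receptors were chosen with earlier results of these arrays known.

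The balance of all calls depended on the scaling. The share of called genes that were higher was 56.5% for IL-6 plus TGFβ over TGFβ, and 44.2% with median scaling and 15.3% without scaling. For IL-6 plus TGFβ over IL-6 plus IL-23 it was 51.8%, and 38.0% with median scaling, 64.9% with scaling to hybridization controls and 89.4% without. For IL-6 plus IL-23 over TGFβ it was 52.5%, and 33.5% with scaling to hybridization controls and 2.48% without. Among the receptor calls, Tnfrsf1b, Tnfrsf4 over IL-6 plus IL-23, and Fas, Tnfrsf9 and Tnfrsf18 over TGFβ kept their direction and stayed at least 2-fold in all 7 other settings. The floor settings could hardly move these ratios, whose levels lay above every floor used. The mean of probe sets could not move Fas, Tnfrsf4 and Tnfrsf18, which have a single probe set. The changes of scaling are thus the main check of these calls.

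**Figure D4:**
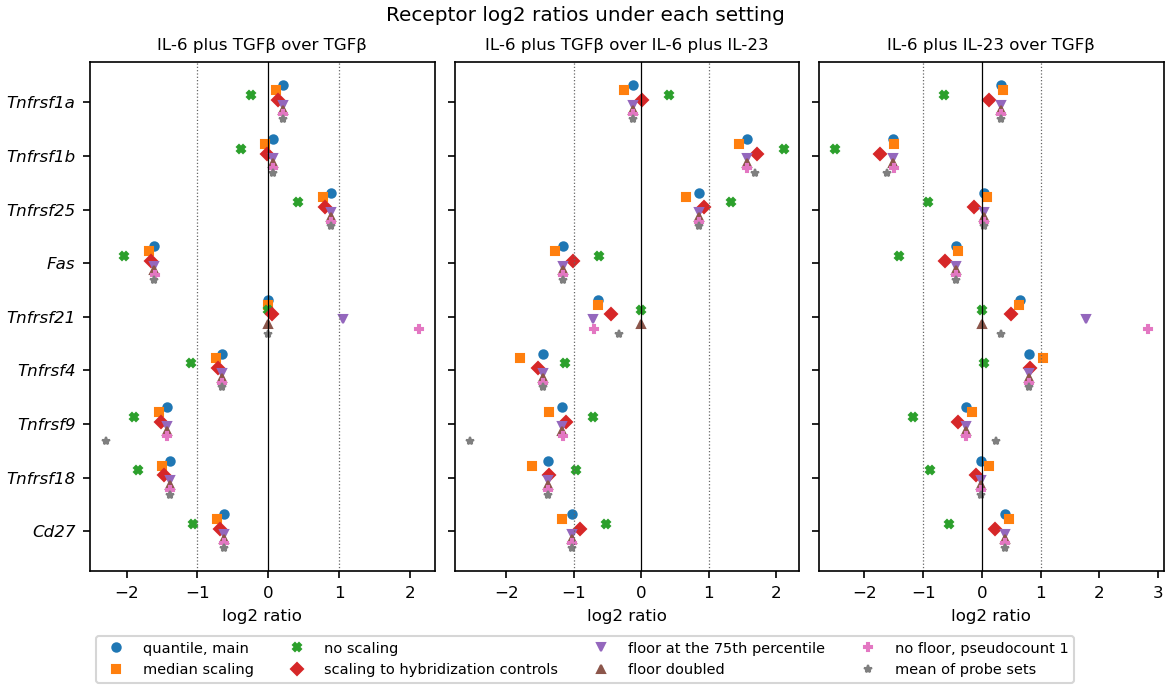
Log2 ratios of the 9 receptors under the quantile normalization used in the text and the 7 other settings, for the 3 comparisons, with the 2-fold limits dotted. The green crosses, without scaling, lie apart from the other settings in each panel, and the low-level gene Tnfrsf21 moves most with the floor.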

How the data were processed

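Biotin-labelled cRNA from total RNA was hybridized to Affymetrix arrays, per the labels' protocols. The authors deposited an intensity on a linear scale for every probe set of each array; how probes were summarised, background-corrected and scaled is not given in the sources used here. Log2 intensities of 45037 probe sets, without 64 control probe sets, were quantile-normalized (limma 3.58.1 in R 4.3.3), which removes any difference in total mRNA. As floor served the 95th percentile of tissue-restricted genes (86 probe sets), 5.37 on the log2 scale. Where 1 array lay at this floor the ratio is only a bound. Probe sets were named from the platform annotation, where 34945 carried 1 symbol, 932 several and 9160 none here, and 34741 were found in RefSeq's table (GRCm38.p6). A gene was represented by its brightest probe set. All receptors and their probe sets were described. From each list the counts and called genes were given. Tnf, Fasl, Cd70, Casp8, Cflar, Cd4, Ncr1, Lyz2, Cd79b, Pax5, Ms4a1, Cd22, Cd79a, Csf1r, Nrp1, Ikzf2 and Mpeg1 were chosen after their values were seen. So were Cd8a, Cd8b1, Eomes and Klrd1. For each receptor called in at least 1 comparison, the 3 genes of nearest pattern were named. The receptors and lists were chosen with earlier results of these data known. The code for the calls was tested on simulated data, with planted changes beyond the 2-fold limit in genes well above the floor. This checks the code and does not measure the error of the calls on these arrays. With 1 array per condition there are no replicates, and the number of arrays limits the precision. Alternatives were median scaling, no scaling, scaling to 18 hybridization control probe sets, other floors, and the mean of probe sets.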

Additional observations from a re-analysis of the deposited data

How the results depend on the processing

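In all, 7 other settings were tried, and 0 of the receptor calls reversed. The settings of the floor could hardly move ratios of levels above it. No paired analysis was possible because each condition has 1 array. Without scaling the receptors called numbered 5 for IL-6 plus TGFβ over TGFβ, 3 for IL-6 plus TGFβ over IL-6 plus IL-23 and 3 for IL-6 plus IL-23 over TGFβ, where 3, 6 and 1 were called in the text. The genes called then numbered 884, 1313 and 3545, where 515, 800 and 737 were called with quantile normalization. The arrays without scaling keep their different brightness, and the median log2 ratio of genes read on both arrays was then -0.42, 0.43 and -0.86, against 0.02, -0.04 and 0.06. With median scaling these medians were -0.08, -0.21 and 0.12, and 2 receptors were called for IL-6 plus IL-23 over TGFβ. With the floor at the 75th percentile the genes called were 832, 1279 and 1153, and without a floor, with a pseudocount of 1, they were 3626, 4329 and 4189. With either of these, 2 receptors were called for IL-6 plus IL-23 over TGFβ, since dimmer genes then count. Taking the mean of all probe sets, the dim Tnfrsf9 probe set included, moved Tnfrsf9 to -2.29 over TGFβ and -2.53 over IL-6 plus IL-23, and its ratio of IL-6 plus IL-23 over TGFβ to 0.24, the other side of 0. Counts in the gene lists moved by over 1.5 times in 25 cases and not in 101. Among these were the ligands for IL-6 plus TGFβ over TGFβ (0 in the text, 0 to 4 elsewhere), the TRAF list for IL-6 plus IL-23 over TGFβ (1, and 1 to 5), and, for that pair, other receptors of the family (2, and 2 to 7) and the NF-κB list (1, and 1 to 7), and the death domain list for IL-6 plus TGFβ over TGFβ (0, and 0 to 2). Signal over background limits Tnfrsf21, Fasl and Cd70, none of which exceeded 2 times the floor on any array.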

Other observations

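Other receptors of the superfamily, outside the 9 described, also differed between the arrays. Of 18 on the array 12 were above the floor on at least 1 array. For IL-6 plus TGFβ over TGFβ 4 of 12 were higher and 2 lower, and for IL-6 plus TGFβ over IL-6 plus IL-23 4 of 12 were higher and 0 lower, with medians of 0.36 and 0.28. Over all genes 2.94% were higher and 2.26% lower in the first pair, and 4.10% and 3.82% in the other. Over TGFβ, 2 of the 4 higher genes, Tnfrsf8 and Tnfrsf23, are bounds against a level at the floor, and with the floor doubled 3 genes were called in this pair in place of 6. Tnfrsf13b, which encodes TACI, a receptor best known on B cells, read 4908 with IL-6 plus TGFβ, 517 with IL-6 plus IL-23 and 2367 with TGFβ. This is 9.49-fold higher with IL-6 plus TGFβ than with IL-6 plus IL-23 and 2.07-fold higher than with TGFβ, on a single probe set. Of 5 B cell markers, Cd79b and Pax5 were below the floor on every array, Ms4a1 was just above it on all 3 (51.7, 43.1 and 46.8 in the same order of arrays), Cd22 was above it with IL-6 plus TGFβ alone (54.0) and Cd79a with TGFβ alone (43.8). The part of B cells in the Tnfrsf13b values was not tested. Tnfrsf12a, which encodes the TWEAK receptor Fn14, read 168 with IL-6 plus TGFβ, lay below the floor with IL-6 plus IL-23 and read 65.7 with TGFβ.

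Cd40, known as a receptor of B cells and antigen-presenting cells, read 191 with IL-6 plus TGFβ, 51.2 with IL-6 plus IL-23 and 522 with TGFβ. It was 2.74-fold lower with IL-6 plus TGFβ than with TGFβ and 10.2-fold lower with IL-6 plus IL-23 than with TGFβ, and its 2 further probe sets had the same order of arrays. The summed level of 8 myeloid and dendritic cell markers was 215 with IL-6 plus TGFβ, 142 with IL-6 plus IL-23 and 299 with TGFβ. Mpeg1 was above the floor with TGFβ alone, at 153. Without it, a sum chosen after seeing the data, the values were 189, 120 and 147. Apart from Csf1r, the markers in that sum lay below the floor on every array. The sum is therefore mostly signal below the floor, and no order of arrays is read from it. Csf1r, the other marker above the floor, read 79.4 with IL-6 plus TGFβ, lay below the floor with IL-6 plus IL-23 and read 63.2 with TGFβ. The part of these cells in the Cd40 values was not tested.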
